A study of Arabidopsis thaliana with 4 samples.

Results

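The effect of losing XRN4 in plants that already lack URT1 was measured by setting the urt1 xrn4 double mutant against the urt1 single mutant. The reads were those whose genotype entry was UX (the double mutant) or urt1, which made up 2 of the 4 TAIL-seq libraries of the series and 26300 and 43391 of its 89792 reads. TAIL-seq ligates an adapter to the 3′ ends of RNA and reads the poly(A) tract with any nucleotides that follow it. Both groups were Arabidopsis thaliana seedlings, 2 weeks old, grown on soil under 16 h of light and 8 h of darkness. The urt1 xrn4 plants carried the alleles urt1-1 and xrn4-3, and the urt1 plants carried urt1-1 alone, so the urt1-1 allele was shared by both groups. The other 2 libraries, xrn4 (xrn4-3) and WT (ecotype Col0), were used only to set the same step beside its counterpart with URT1 present.

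URT1 is the terminal uridylyltransferase that adds most uridines to the shortened poly(A) tails of Arabidopsis mRNAs. XRN4 is the cytoplasmic 5′-to-3′ exoribonuclease that degrades mRNAs after their cap has been removed, and plants that lack it accumulate decapped intermediates. HESO1, best known for uridylating small RNAs, is another uridylyltransferase of this species.

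Each genotype had 1 library, so no difference below has a replicate check, and no test between genotypes was made. Intervals are 95% intervals for counting error only, and are too narrow where reads are copies of one molecule. Reads that differed in locus, tract length or extension (distinct ends) made up 50.03% of the urt1 xrn4 reads and 47.1% of the urt1 reads. The 2 libraries held reads of 4066 and 5489 loci, and 2517 loci were read in both. All tails had A tracts of 4 to 30 nt, so the values describe short tails and not whole mRNA pools. No read of URT1, XRN4 or HESO1 was present in either library, so the reads could not check the genotypes. Transcripts of photosystem and light-harvesting proteins made up 12.1% of reads in urt1 xrn4 and 12.1% in urt1.

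Uridylated tails were more frequent in urt1 xrn4, at 13.4% (3518 of 26300; 12.97 to 13.79), against 6.87% in urt1 (2983 of 43391; 6.64 to 7.12). The difference was 6.50 percentage points (6.03 to 6.98), a 1.95-fold higher share (1.85 to 2.04). Reads of the libraries came from 2 sequencing lanes, and each lane gave the same picture, with 13.5% and 13.3% in urt1 xrn4 against 6.82% and 6.93% in urt1. The lanes read the same libraries and are not replicates. When each distinct end was counted once, 16.7% of urt1 xrn4 and 10.4% of urt1 ends were uridylated, a difference of 6.32 points. Unmodified tails made up 78.5% of tails in urt1 xrn4 and 85.1% in urt1. G and C extensions did not share this difference. G extensions made up 6.004% of tails in urt1 xrn4 and 5.94% in urt1 (difference 0.0648 points, -0.296 to 0.431), and C extensions 2.16% and 2.05% (difference 0.115 points, -0.103 to 0.339). Counted by distinct ends, G extensions made up 6.89% in urt1 xrn4 and 8.03% in urt1, and C extensions 3.31% and 3.62%. Because unmodified tails of a locus can differ only over 27 A lengths, shares of distinct ends also vary with depth. The urt1 library had more reads. In RNA from whole seedlings, a change in the mix of cells cannot be told apart from a change within cells.

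In points, the difference was larger in the class of 4 to 9 A (9.34, 8.11 to 10.6) than in that of 10 to 25 A (5.43, 4.92 to 5.95). The ratios went the other way, at 1.73-fold and 1.97-fold. Taken length by length, the differences in points were largest from 7 to 12 A. That range holds the lengths with the largest differences, so its values are not a separate test. At 7 to 12 A, 24.5% of urt1 xrn4 tails were uridylated (23.4 to 25.6) against 949 of 9488 urt1 tails, a 2.45-fold higher share. The largest share at a single length was 25.6% at 11 A in urt1 xrn4, whereas urt1 had its largest share, 17.8%, at 4 A. At exactly 4 A the libraries were closer, with 21.4% in urt1 xrn4 and 17.8% in urt1 (difference 3.60 points, 1.20 to 6.01). The gap then narrowed along the longer tracts, to 9.99% against 5.73% at 13 to 18 A. From 26 to 30 A the shares were 3.10% in urt1 xrn4 (41 of 1322) and 2.68% in urt1 (59 of 2198), and the interval of the difference included 0 (-0.693 to 1.65 points). The share was higher in urt1 xrn4 at 24 of the 27 A lengths, and the interval of the difference lay above 0 at 17 of them and below 0 at none. Taken at the A lengths of urt1, the urt1 xrn4 share was 12.8%, still 5.88 points above urt1.

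**Figure D1:**
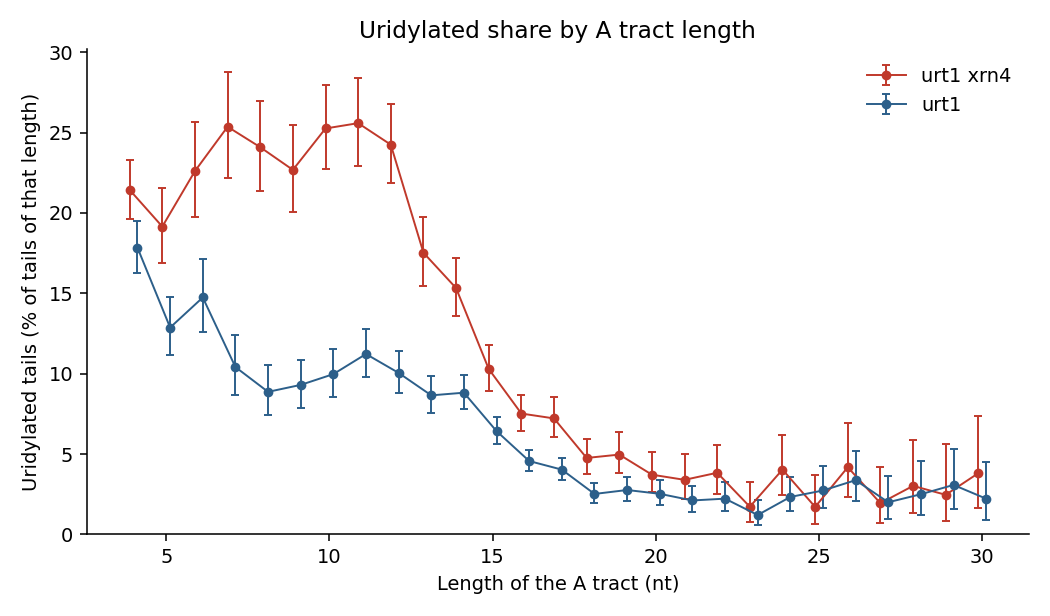
Share of tails with a U extension (percent of tails of that length) against the length of the A tract (nt) in urt1 xrn4 and urt1, 1 library each; bars are exact 95% intervals for counting error. The urt1 xrn4 share stays above 19% from 4 to 12 A while the urt1 share is 17.8% at 4 A and 10.05% at 12 A, and the intervals overlap from 20 A on.

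The extensions themselves were longer in the double mutant. Extensions are given below in the letters and direction of the deposited table, where T stands for U. Whether the table writes them 5′ to 3′ is not stated. None of the 6501 U extensions ended in A as written, whereas 1579 began with A. If tracts were counted to their last A, an A beside the tract would be part of it. Under that reading the last written letter, and not the first, would stand next to the tract. The set shown holds a single U, the runs of 2 to 5 U, the longest run and the most frequent mix with A, to show how the libraries differ with the length of the run; every letter belongs to the extension.
single U: T
run of 2 U: TT
run of 3 U: TTT
run of 4 U: TTTT
run of 5 U: TTTTT
longest run of U alone with at least 5 reads: TTTTTTTTT
most frequent mix of A and U: AT

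The single U was written on 1167 reads at 499 loci in urt1 xrn4 and on 1421 reads at 663 loci in urt1, a 1.35-fold higher share of tails in urt1 xrn4 (1.25 to 1.46). The run of 2 U stood on 902 reads at 445 loci in urt1 xrn4 and on 528 reads at 210 loci in urt1, a 2.82-fold higher share. The run of 3 U stood on 299 reads at 164 loci in urt1 xrn4 against 93 reads at 37 loci in urt1, a 5.30-fold higher share (4.19 to 6.77). Runs of 2 and 3 U were thus found at more loci in urt1 xrn4, although that library had fewer reads. The run of 4 U stood on 101 reads at 56 loci in urt1 xrn4 and on 49 reads at 19 loci in urt1 (3.40-fold, 2.39 to 4.89). The run of 5 U stood on 43 reads at 27 loci in urt1 xrn4 and on 7 reads at 4 loci in urt1 (10.1-fold, 4.52 to 26.7). The ratio was therefore higher for each run of 2 to 5 U than for a single U, but did not grow steadily with length. The run of 9 U was read 5 times, at 3 loci, in urt1 xrn4 and 0 times in urt1, where 0 reads allow 69.1 CPM (counts scaled to equal library totals). Of the 35 U extensions with at least 5 reads, 8 were read in urt1 xrn4 only and 0 in urt1 only. Those 8 reached the minimum through urt1 xrn4 alone, so this split adds no separate support. Some of them stood at only 1 locus.

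U was also counted whether or not A stood beside it. Among uridylated tails, 1 U was found in 52.6% of urt1 xrn4 tails and 69.4% of urt1 tails (difference -16.8 points, -19.1 to -14.4). Extensions with 3 or more U made up 18.4% in urt1 xrn4 (17.2 to 19.8) and 8.68% in urt1 (7.70 to 9.75), a difference of 9.77 points (8.13 to 11.4). They were read at 332 loci in urt1 xrn4 and at 130 loci in urt1. The mean number of U per uridylated tail was 1.82 ± 1.22 in urt1 xrn4 and 1.46 ± 0.869 in urt1 (SD over reads), with up to 11 and up to 8 U. As a share of all tails, 1 U was 1.47-fold higher in urt1 xrn4 (1.39 to 1.57), 2 U 2.57-fold (2.32 to 2.84) and 3 or more U 4.13-fold (3.57 to 4.79). Within that last class the ratio was 4.05 for 3 U, 3.23 for 4 U, 8.88 for 5 U and 4.76 for 6 or more U, with no steady order. Extensions that mixed U with A took 26.8% of uridylated tails in urt1 xrn4 and 29.3% in urt1 (difference -2.46 points, -4.66 to -0.272). That difference was -0.762 points in 1 lane, with an interval that included 0, and -6.18 points with identical reads counted once.

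**Figure D2:**
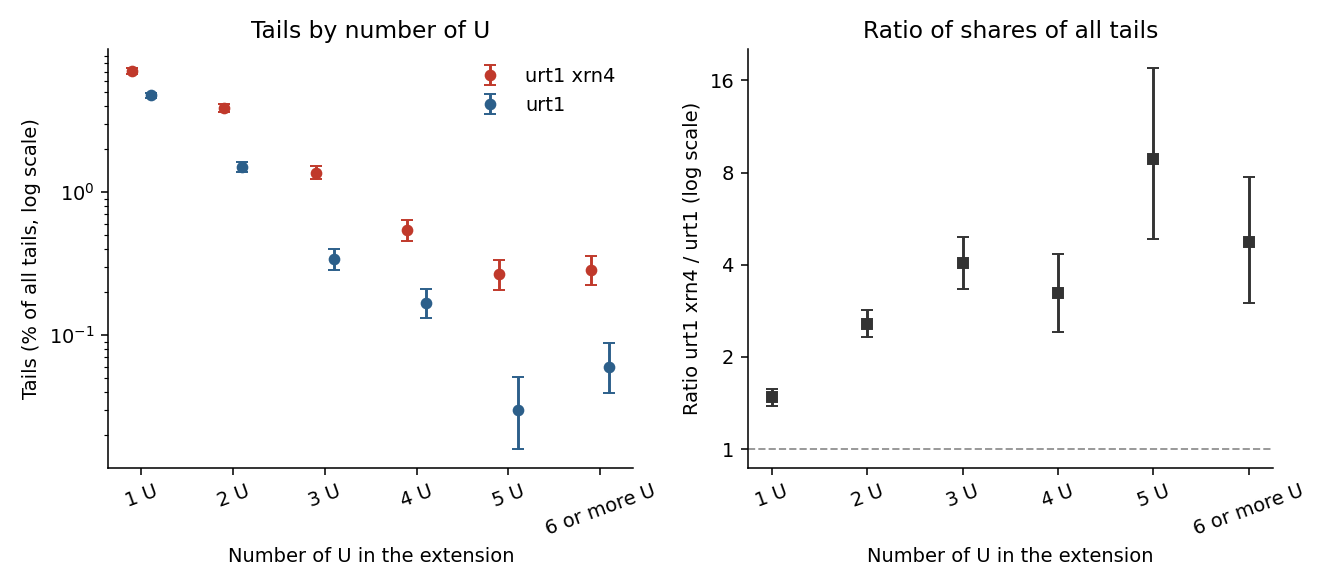
Left, percent of all tails whose extension holds a given number of U (log scale) in urt1 xrn4 and urt1; right, the ratio of urt1 xrn4 to urt1 for the same classes (log scale); bars are 95% intervals for counting error, 1 library each. The ratio is 1.47 for 1 U and lies between 2.57 and 8.88 for the classes with more U.

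The number of U per gene could be compared for 23 genes, those in which each library held 10 or more uridylated tails. The mean number of U was higher in urt1 xrn4 for 15 of them and lower for 8, with a median difference of 0.24. PSAK, a photosystem I subunit, averaged 2.57 U in urt1 xrn4 and 1.14 in urt1 (21 and 14 uridylated tails). RCA, the chaperone that activates Rubisco, averaged 2.59 U in urt1 xrn4 and 1.83 in urt1. CRD1, which acts in chlorophyll synthesis, averaged 2.71 U in urt1 xrn4 and 2.14 in urt1. FBA1, a plastid aldolase, went the other way, with 1.32 U in urt1 xrn4 and 2 in urt1 (19 and 20 uridylated tails). AT1G07940, annotated as a GTP-binding translation factor, had 1 U on each of its 25 uridylated tails in urt1 xrn4 and a mean of 1.13 in urt1. Longer U extensions were thus not found on every gene with more uridylated tails.

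A tracts were slightly shorter in the double mutant. The mean A length was 14.3 ± 6.29 nt in urt1 xrn4 and 14.9 ± 5.99 nt in urt1 (SD over reads), a difference of -0.598 nt with a standard error over reads of 0.0483, and the median was 15 nt in both. Tails under 10 A made up 24.7% in urt1 xrn4 and 19.7% in urt1 (difference 4.96 points, 4.32 to 5.60), and tails of exactly 4 A, the shortest in the table, 7.45% and 5.21%. Among unmodified tails the mean was 15.2 nt in urt1 xrn4 and 15.4 nt in urt1, and among uridylated tails 10.9 nt and 11.5 nt. Tails with 3 or more U had the shortest tracts of the U classes, with a mean of 8.94 nt in urt1 xrn4 and 9.38 nt in urt1. The length result depended on how identical reads were counted: with each counted once the difference in mean length was -0.154 nt and that in tails under 10 A was 1.49 points. The most frequent length of unmodified tails was 16 A in both libraries.

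**Figure D3:**
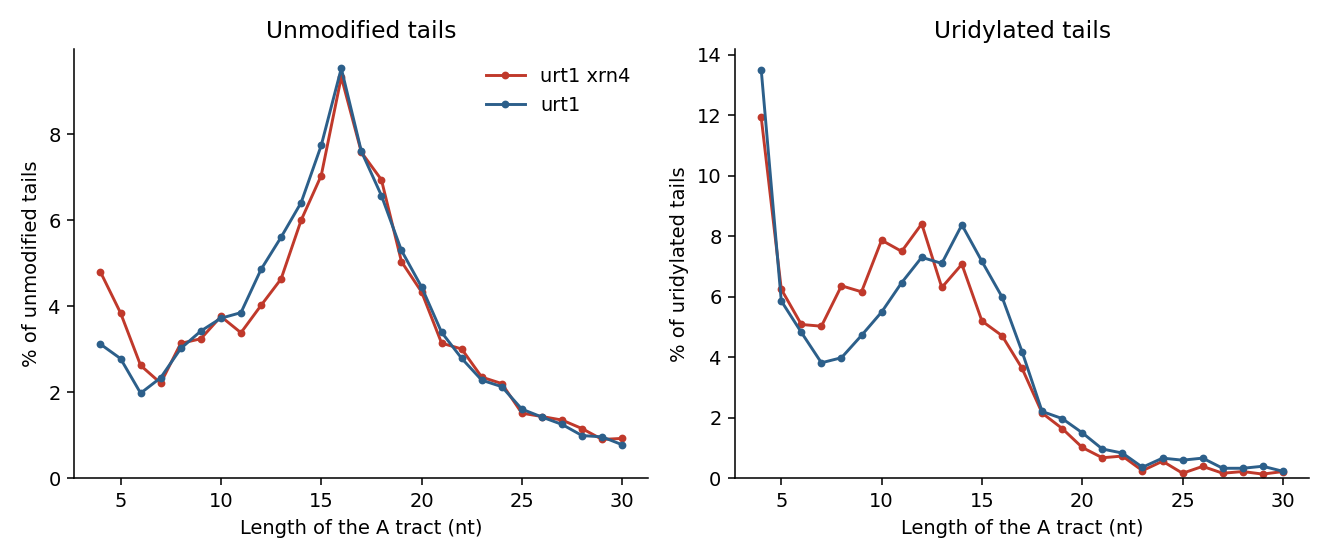
Distribution of A tract lengths (nt) among unmodified tails (left, percent of unmodified tails) and uridylated tails (right, percent of uridylated tails) in urt1 xrn4 and urt1, 1 library each. Unmodified tails peak at 16 A in both; at 4 A they make up 4.80% in urt1 xrn4 and 3.12% in urt1, and at 14 A uridylated tails make up 7.08% in urt1 xrn4 and 8.38% in urt1.

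The higher share was found at all levels of read number. Loci with 1 read in the 2 libraries together had 27.99% uridylated reads in urt1 xrn4 (199 of 711) and 13.9% in urt1 (139 of 997). The shares were 18.99% in urt1 xrn4 and 8.94% in urt1 for loci with 2 to 4 reads, and 15.1% and 7.22% for those with 5 to 19. In loci with 20 to 49 reads they were 13.5% in urt1 xrn4 and 6.22% in urt1, and with 50 to 99 reads 10.2% and 5.01%. The 92 loci with 100 or more reads had the smallest gap, 9.92% in urt1 xrn4 and 6.40% in urt1, a 1.55-fold difference against 2.01-fold to 2.18-fold in the other classes.

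Genes were then compared singly. A gene was counted as changed where the interval of the difference in its uridylated share lay wholly on one side of 0. Among the 58 genes that had 50 or more tails per library, 46 had a higher uridylated share in urt1 xrn4, 11 a lower one and 1 the same. The interval lay above 0 for 14 genes (24.1% of those tested) and below 0 for 0 genes (0%), and the median difference was 2.52 points. With at least 20 tails, 38 of 203 genes were higher (18.7%) and 2 were lower (0.985%). All 14 genes had the same direction in both lanes. They were called on both lanes together, and most reads had an identical end in the other lane, so this is no independent check. Results at single genes depended strongly on how identical reads were counted. Counted by distinct ends, of which 13 of the 14 had 20 or more in each library, 3 still had an interval above 0, namely CAB2, PSAK and AT3G60245. With only extensions of U alone counted as uridylated, 10 of the 14 kept an interval above 0. PSAK (2.73 points), DELTA-TIP (1.35), emb2171 (1.22) and AT1G07940 (4.01) did not, and the difference of CAB2 was 7.20 points.

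Light-harvesting and photosystem genes formed the largest group tested, with 4 of 17 genes higher, 0 lower and a median difference of 3.68 points, beside 24.1% higher and a median of 2.52 points over all 58 genes. CAB2, a chlorophyll a/b-binding protein of photosystem II, had 24 of 79 tails uridylated in urt1 xrn4 (30.4%) and 12 of 143 in urt1 (8.39%), a difference of 21.99 points (11.3 to 33.4). CAB1 and CAB3, its near-identical neighbours, can share reads with it. CAB1 had 12 of 159 in urt1 xrn4 and 39 of 420 in urt1 and CAB3 22 of 252 and 27 of 399, and the interval included 0 for both. PSAK had 21 of 98 tails uridylated in urt1 xrn4 (21.4%) and 14 of 249 in urt1 (5.62%). LHCB2.2 of the major antenna had 32 of 204 in urt1 xrn4 (15.7%) and 25 of 393 in urt1 (6.36%). Its family member LHCB2.1 had 21 of 120 in urt1 xrn4 and 22 of 176 in urt1, with an interval that included 0. LHCB6, a minor antenna protein, had 28 of 171 in urt1 xrn4 and 25 of 296 in urt1. Counted by distinct ends, the differences of LHCB2.2 and LHCB6 were 4.39 and 5.19 points with intervals that included 0. DRT112, the plastocyanin gene and the locus with most reads, had 25 of 260 in urt1 xrn4 and 36 of 514 in urt1, and its interval included 0.

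Cytosolic ribosomal protein genes had low shares in urt1 and were higher at 4 of 13 genes, lower at 0, with a median difference of 2.04 points, beside the 24.1% higher over all genes. AT3G09200 of the L10 family had 14 of 65 tails uridylated in urt1 xrn4 (21.5%) and 7 of 220 in urt1 (3.18%). AT3G60245, a zinc-binding ribosomal protein, had 9 of 139 in urt1 xrn4 and 0 of 174 in urt1. The gene emb2171 of the L14p/L23e family had 16 of 194 in urt1 xrn4 and 11 of 377 in urt1. The fourth was AT5G02450 of the L36e family, with 3 of 63 in urt1 xrn4 and 0 of 144 in urt1, a gene named after its values were seen. AT3G60245 rested on 7 distinct uridylated ends in urt1 xrn4. AT3G09200 rested on 6 distinct uridylated ends in each library, and its difference was 6.82 points with an interval that included 0 when identical reads were counted once.

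Pigment, vacuolar and other genes made up the rest. CRD1 had 41 of 139 tails uridylated in urt1 xrn4 (29.5%) and 59 of 353 in urt1 (16.7%). Its difference of 12.8 points turned to -3.08 points with identical reads counted once. TIP2 and DELTA-TIP, water channels of the vacuolar membrane, had 43 of 163 and 12 of 77 in urt1 xrn4 against 26 of 220 and 8 of 136 in urt1. Their differences, 14.6 and 9.70 points, were 18.4 and 14.8 points with identical reads counted once, with intervals that included 0. AT4G05070, annotated as a wound-responsive protein, had 28 of 128 in urt1 xrn4 and 11 of 105 in urt1, a difference of 11.4 points that turned to -1.52 with identical reads counted once. AT1G07940 had 25 of 157 in urt1 xrn4 and 38 of 389 in urt1, and its 6.15 points turned to -9.66. THI1, a thiamine synthesis enzyme named after its values were seen, had 5 of 53 in urt1 xrn4 and 3 of 127 in urt1, on 2 and 3 distinct uridylated ends. RCA had the largest share in urt1, 25.7% (87 of 339), and 18.6% in urt1 xrn4 (22 of 118), with an interval of the difference from -14.8 to 2.07 points. RCA therefore stood below the diagonal in a set where 46 of 58 genes stood above it.

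**Figure D4:**
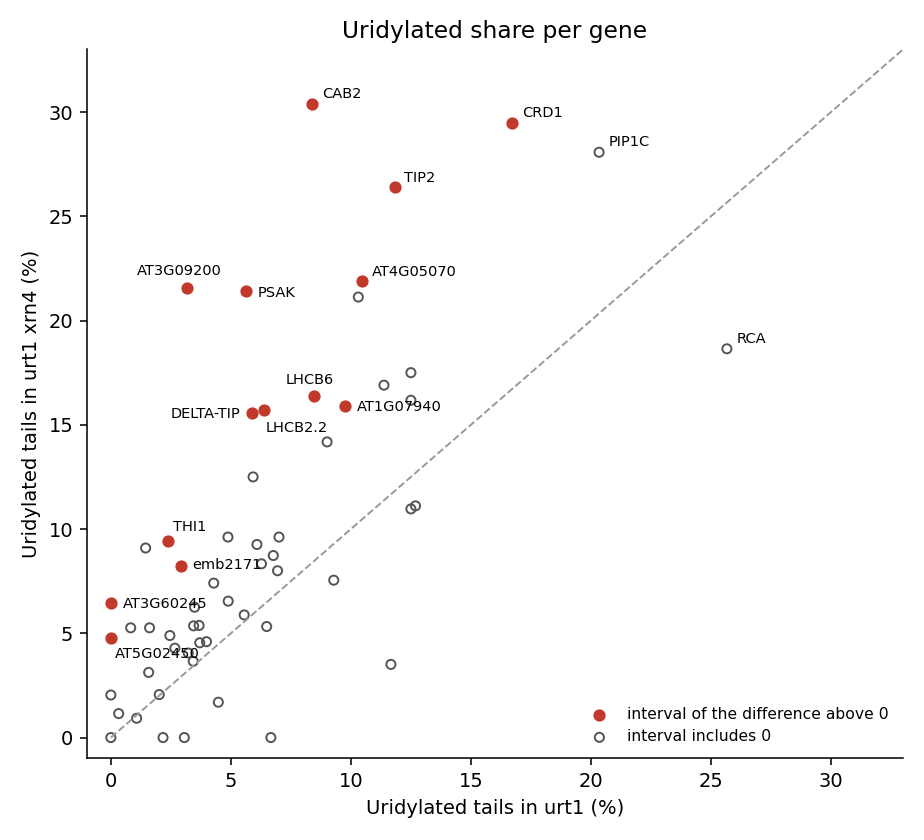
Uridylated share (percent of tails) in urt1 xrn4 against that in urt1 for the 58 genes tested; filled points are the 14 genes whose 95% interval of the difference lies above 0, and the dashed line marks equal shares. CAB2, CRD1, PIP1C and TIP2 lie highest, PIP1C with an interval that includes 0, and RCA lies to the right below the line.

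Tails pooled over gene lists, which include genes too lightly read to be compared singly, were set beside the 6.50 points over all tails. The photosystem (4.15 points), cytosolic ribosomal protein (4.46) and ubiquitin (6.19) lists lay below that value. The other lists of this paragraph lay above it. Photosystem and light-harvesting tails were uridylated at 11.5% in urt1 xrn4 (10.4 to 12.7) and 7.35% in urt1 (6.66 to 8.09). Cytosolic ribosomal protein tails stood at 7.81% in urt1 xrn4 (6.90 to 8.81) and 3.35% in urt1 (2.88 to 3.88), and elongation and initiation factor tails at 14.3% and 6.80%. Aquaporin tails stood at 17.8% in urt1 xrn4 and 9.56% in urt1, tails of chlorophyll synthesis genes at 26.9% and 14.0%, and those of the methionine and S-adenosylmethionine cycle at 21.5% and 9.36%. Glycine-rich and cold-shock RNA-binding proteins had 20 of 180 tails uridylated in urt1 xrn4 and 4 of 226 in urt1, and ubiquitin and related proteins 12.9% and 6.72%. Counted by distinct ends, the interval of the difference included 0 for the chlorophyll, methionine cycle and ubiquitin lists. CRD1 alone gave 139 of the 219 chlorophyll synthesis tails in urt1 xrn4 and 353 of the 522 in urt1.

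Other lists did not show a higher share beyond counting error. Calvin cycle tails were uridylated at 8.90% in urt1 xrn4 (7.22 to 10.8) and 9.42% in urt1 (8.25 to 10.7), a difference of -0.521 points (-2.57 to 1.70), and 0 of the 6 genes tested were counted as changed. RBCS1A, a Rubisco small subunit, had 9 of 246 in urt1 xrn4 and 14 of 408 in urt1, and the aldolase FBA2 had 9 of 169 and 37 of 570. Antioxidant enzymes stood at 13.5% in urt1 xrn4 and 14.7% in urt1, and plastid ribosomal proteins at 5.65% and 4.02%. Further lists had higher values in urt1 xrn4 with intervals of the difference that included 0. These were lipid transfer proteins (4.36% in urt1 xrn4 and 2.03% in urt1), germins with metallothioneins (4.72% and 2.99%), cell wall enzymes (8.16% and 6.75%) and heat shock chaperones (28.3% and 18.9%). Genes of mRNA decay and poly(A) binding had only 28 tails in urt1 xrn4 and 27 in urt1, of which 1 and 2 were uridylated.

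**Figure D5:**
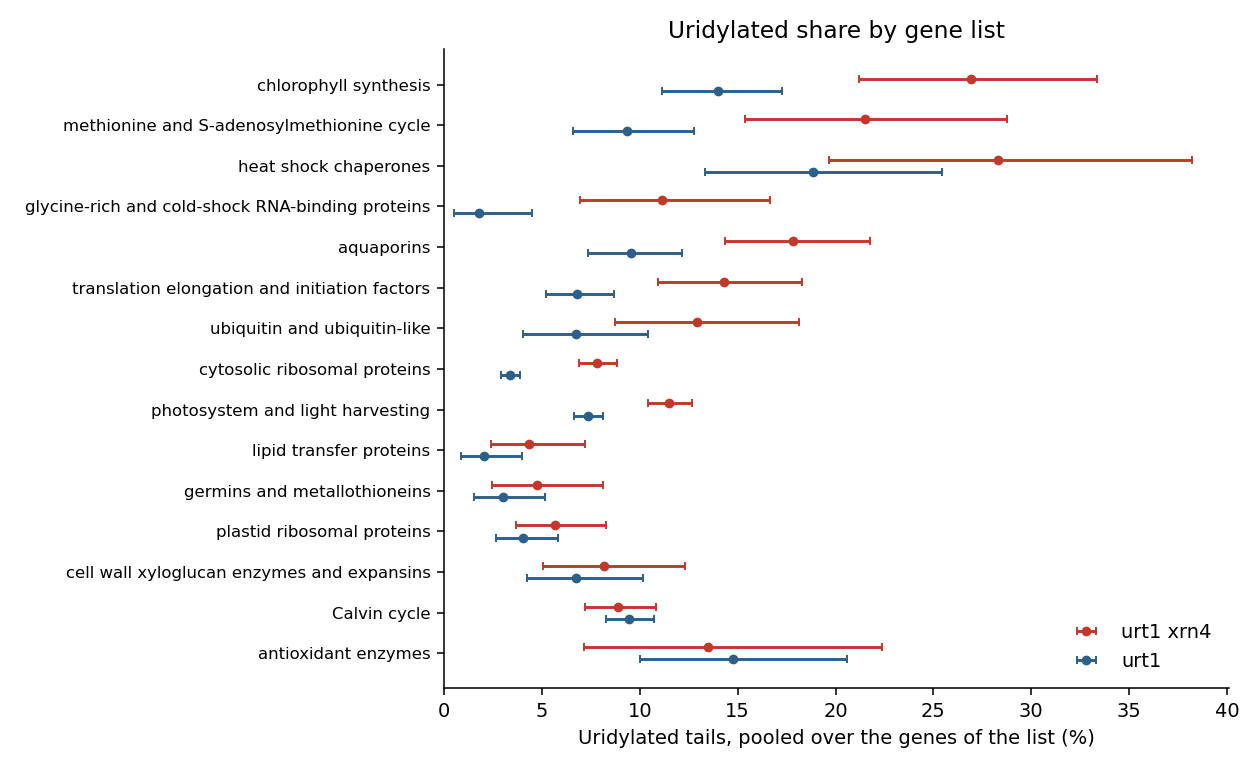
Uridylated tails (percent, pooled over the genes of a list) in urt1 xrn4 and urt1 for the lists with at least 4 genes compared for share of reads, ordered by the difference; bars are exact 95% intervals for counting error, 1 library each. Chlorophyll synthesis has the largest difference, 26.9% against 14.0%, and Calvin cycle and antioxidant genes have the lower value in urt1 xrn4.

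Ethylene signalling genes were looked at because XRN4 is also known as EIN5, a gene found through ethylene-insensitive mutants. EBF1 and EBF2 encode F-box proteins that target the transcription factor EIN3 for degradation. EBF1 had 40 reads in urt1 xrn4, of which 22 were uridylated, and 28 reads in urt1, of which 9 were uridylated, and the interval of the difference included 0. Over the whole list 31.6% of tails were uridylated in urt1 xrn4 (24 of 76) and 19.1% in urt1 (13 of 68), again with an interval that included 0. EBF2 had 8 reads in urt1 xrn4 and 0 in urt1, and EIN3 itself 0 in urt1 xrn4 and 8 in urt1. ERF4, an ethylene-responsive repressor, had 20 reads in urt1 xrn4 and 8 in urt1.

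The share of reads per gene was compared over the 598 genes whose reads in urt1 xrn4 and urt1 summed to 20 or more. The measure was the log2 ratio of CPM after adding 0.5 to each count. To be counted, a gene needed a ratio of 2-fold or more and an interval that excluded no change. By this rule 73 genes were higher in urt1 xrn4 (12.2%) and 61 were lower (10.2%), 22.4% in either direction, with a median log2 ratio of 0.03. The split depended on the scaling: trimmed mean of M values scaling, which shifted all genes by 0.21 on the log2 scale, found 53 higher and 85 lower genes, whereas scaling by the median of ratios, with a shift of 0.31, found 46 higher and 98 lower. By distinct ends, 10 of 304 genes were higher and 3 lower. Unmodified tails of a locus can differ only over 27 A lengths. Distinct ends therefore level off at heavily read loci, where they understate a ratio. The ethylene list had 2 genes tested, EBF1 and ERF4, both counted as higher, at log2 ratios of 1.23 and 1.99. EBF1 missed the 2-fold rule with median of ratios scaling (0.92), among unmodified tails alone (0.76) and by distinct ends (0.38).

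The genes with the largest gains were mostly lightly read. RAP2.4, an AP2/ERF transcription factor, had 24 reads (10 distinct ends) in urt1 xrn4 and 1 read in urt1. CXE18, a carboxylesterase, had 22 reads in urt1 xrn4 and 0 in urt1, at least 12.1-fold higher against 3 reads in urt1, but all 22 reads were 1 distinct end. AT4G32020, with a product annotated as a serine/arginine repetitive matrix-like protein, was better covered, with 84 reads (28 distinct ends) in urt1 xrn4 and 31 reads (12 distinct ends) in urt1, a log2 ratio of 2.15. BBX15, a B-box zinc finger protein, had 22 reads in urt1 xrn4 and 4 in urt1. AT1G23390, a Kelch F-box protein, had 42 and 12. AT4G27090, a ribosomal protein L14, had 42 reads in urt1 xrn4 and 13 in urt1, a log2 ratio of 2.38, but 1.25 with an interval that included no change when identical reads were counted once. PSBR, a subunit of photosystem II, had the most reads of any gene in urt1 xrn4, 327 (12434 CPM), against 244 in urt1 (5623 CPM), a log2 ratio of 1.14. That ratio was 0.93 and 0.84 under the other scalings and 0.82 by distinct ends, all short of 2-fold.

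The genes named with fewer reads in the double mutant were better covered. GAPC2, a cytosolic glyceraldehyde-3-phosphate dehydrogenase, had 28 reads in urt1 xrn4 and 152 in urt1, a log2 ratio of -1.70 (-2.36 to -1.13). ATMS1, a methionine synthase, had 22 and 115, and LOS1, annotated in the elongation factor G family, had 21 and 108. Among cytosolic ribosomal proteins, RPL24A had 6 reads in urt1 xrn4 and 52 in urt1, PFL (S13/S18 family) 22 and 113, and RP1 18 and 99. AT4G16720 of the L15e family had 0 reads in urt1 xrn4 and 22 in urt1, at least 4.45-fold lower against 3 reads in urt1 xrn4. Its near copy AT4G17390, which can share reads with it, also had a lower share of reads in urt1 xrn4, with 28 and 110 reads. In the plastid, AT1G64510, a ribosomal protein of the S6 family, had 11 reads in urt1 xrn4 and 91 in urt1. FBA2 had 169 reads in urt1 xrn4 and 570 in urt1, a log2 ratio of -1.03, or -0.05 by distinct ends (47 in urt1 xrn4 and 76 in urt1). By distinct ends ATMS1, LOS1, PFL, RP1 and AT1G64510 had log2 ratios between -0.75 and -0.33, with intervals that included no change. Because distinct ends level off at heavily read loci, these smaller ratios do not show that a loss of reads is absent.

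Lists were described by the same counts, beside 12.2% higher and 10.2% lower over all genes. Of 94 cytosolic ribosomal protein genes tested, 9 were higher and 12 lower, with a median log2 ratio of 0.21 that became -0.01 and -0.10 under the other scalings. Of 45 photosystem genes, 4 were higher and 1 lower, with a median of -0.01, and the other scalings left 1 higher in each case and 1 and 2 lower. Of 17 Calvin cycle genes 0 were higher and 4 lower, with a median of -0.42, and 7 were lower under both other scalings, but 0 of 15 by distinct ends. The smaller lists of lipid transfer and ubiquitin-related proteins had medians of 1.06 and 0.60, with 2 of 5 and 2 of 8 genes higher and 0 lower; by distinct ends 0 of 3 and 0 of 5 were higher. These shares of short-tailed ends also hold genes read in 1 library only: 1549 loci were read in urt1 xrn4 only and 2972 in urt1 only, none with more than 22 reads. Of the 14 genes higher in uridylation, 1 was also higher and 1 lower in share of reads, beside 22.4% changed in either direction over all genes tested.

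Tract length was compared gene by gene over the 203 genes that had 20 or more tails per library, and a gene was counted where the 95% interval from the standard error over reads excluded 0. By this rule 22 genes had longer tracts in urt1 xrn4 (10.8%) and 37 had shorter ones (18.2%), 29.1% in either direction, with a median difference of -0.18 nt. CAB1 had a mean of 13.3 nt in urt1 xrn4 and 16.3 nt in urt1 (difference -2.98 nt, SE 0.603), and LHB1B2, another antenna protein, 16.0 nt and 18.1 nt. AT4G05070 had 14.8 nt in urt1 xrn4 and 17.7 nt in urt1, and CRD1 15.2 nt and 16.7 nt. CAB3 had 14.8 nt in urt1 xrn4 and 16.3 nt in urt1, but its difference of -1.47 nt turned to 0.23 nt with identical reads counted once. That counting left the other 4 with shorter tracts in urt1 xrn4, by differences whose intervals included 0. No gene with at least 100 tails had longer tracts beyond counting error; the largest increases were in GER1, a germin-like protein, with 17.0 nt in urt1 xrn4 and 15.9 nt in urt1, and LHCB2.1, with 14.6 nt and 13.8 nt. Among unmodified tails alone GER1 and TIP2 had longer tracts in urt1 xrn4, by 1.31 and 1.69 nt, and the difference of CRD1 was -0.02 nt. Of the 14 genes with a higher uridylated share, 6 were also among those with shorter tracts and 0 among those with longer ones. Over all 58 genes that had 50 or more tails per library, as these 14 did, 16 had shorter tracts (27.6%) and 5 longer ones (8.62%), 36.2% in either direction.

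The same step with URT1 present was xrn4 against WT, which shares no library with the comparison above. Uridylated tails made up 40.2% in xrn4 and 31.7% in WT, a gap of 8.49 points (7.17 to 9.81) with URT1 present. Without URT1 the gap was 6.50 points, a difference of -1.99 points (-3.39 to -0.583). As a ratio the order was the other way round, 1.95-fold without URT1 against 1.27-fold with it, a ratio of 1.53 (1.45 to 1.63). By distinct ends the difference in points was 3.49, of the opposite sign, so its direction depended on how identical reads were counted. The xrn4 and WT libraries held 9797 and 10304 reads, fewer than urt1 xrn4 and urt1. Distinct ends level off at heavily read loci, so this measure also varies with depth. Extensions with 3 or more U among uridylated tails were more frequent in the library without XRN4 in both comparisons. They made up 18.4% in urt1 xrn4 and 8.68% in urt1, and 35.2% in xrn4 and 21.2% in WT. Among uridylated tails, extensions mixing U with A moved in opposite directions. They took 26.8% in urt1 xrn4 and 29.3% in urt1, but 17.7% in xrn4 and 13.1% in WT. These changes differed by -7.06 points (-9.81 to -4.31). Of all tails, such extensions made up more in urt1 xrn4 (3.59%) than in urt1 (2.01%). The excess of tails under 10 A was 4.96 points without URT1 and 8.79 points with it (26.7% in xrn4 and 17.9% in WT), which differed by -3.83 points (-5.14 to -2.52).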

How the data were processed

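TAIL-seq reads of 4 libraries, 1 per genotype, were deposited as 1 table with a line per read. Per the file headers it gives the read identifier, the genotype, the A length, the added letters and their number, a category and the locus; no other unit, score or normalised value was deposited. The genome was TAIR10, and the tools named were bedtools 2.17.5, TopHat2 2.0.9, Bowtie2 and CASAVA 1.8.2, per the submitters' processing notes. The read filters and the reason that tracts end at 30 A are not stated. UX was read as urt1 xrn4, since WT, urt1 and xrn4 are named as in the labels. Lanes were read from the read identifiers; 63.3% of urt1 xrn4 reads and 66.7% of urt1 reads had an identical end in the other lane, so lanes are not replicates.

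Reads were counted with pandas 2.3.3, numpy 2.4.6 and scipy 1.17.1 (Python 3.11.15); figures were drawn with matplotlib 3.10.9. Shares have exact Clopper-Pearson intervals, differences Newcombe's intervals and ratios exact conditional binomial intervals. Loci were named from NCBI's annotation of TAIR10.1 (7006 of 7038 matched); no coordinates are printed. A count of 0 was read as up to 3 reads. Each per-gene step was run on simulated reads drawn independently, without copied reads. That run cannot show how the counts of changed genes behave where reads are copies of one molecule. The members and gene lists were chosen with earlier results of these data known, and wrongly matched list members were removed by product name, not by value. Genes named were URT1, XRN4 and HESO1, the 5 loci with most reads, the 10 genes in each direction with intervals farthest from no change (uridylation, share of reads), the 5 largest length changes in each direction with at least 100 tails, and up to 4 list members with most reads; the text gives those of main interest and says where it goes beyond them. Alternatives covered identical reads, A length range, tail category, scaling, minimum counts, abundant genes and lanes.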

Additional observations from a re-analysis of the deposited data

Results flagged for a closer look

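For 8 measures the change without URT1 (urt1 xrn4 against urt1) differed from that with URT1 (xrn4 against WT), by an interval of the difference that excluded 0. For the other measures compared the interval included 0. These were G extensions (-0.599 points) and the uridylated share at 4 to 9 A (-2.29), 10 to 25 A (-0.865) and 26 to 30 A (-2.23). Several of the 8 overlap, such as 1 U with 3 or more U, and tails under 10 A with mean A length. These intervals cover counting error only, and with 1 library per genotype an effect of the mutation cannot be told apart from a difference between libraries. In single lanes some intervals included 0. These were uridylated tails in lane 2 (-3.81 to 0.0820 points) and 3 or more U among uridylated tails in lane 1 (-7.10 to 0.428). C extensions in lane 2 were a further case (-1.41 to 0.0129). The change in uridylated tails differed by -1.99 points. Among uridylated tails, 1 U fell by 16.8 points without URT1 (52.6% in urt1 xrn4 and 69.4% in urt1) and by 8.30 points with it (24.5% in xrn4 and 32.8% in WT), a difference of -8.47 points, although the ratios of shares were 0.758 and 0.747. The change in 3 or more U differed by -4.30 points among uridylated tails and by -5.58 points among all tails (2.47% in urt1 xrn4 and 0.597% in urt1, 14.2% in xrn4 and 6.72% in WT). For uridylated tails and both measures of 3 or more U the ratios of shares differed the other way and were larger without URT1. By distinct ends, a measure that also varies with depth, the difference for uridylated tails was 3.49 points, of the opposite sign. That for 3 or more U among uridylated tails was -0.456 points, with an interval that included 0. The excess of tails under 10 A was smaller without URT1 by 3.83 points (difference -3.83). Among uridylated tails, the change in U extensions mixed with A differed by -7.06 points. C extensions changed by 0.115 points without URT1 (2.16% in urt1 xrn4 and 2.05% in urt1) and by 0.859 points with it (3.27% in xrn4 and 2.41% in WT), a difference of -0.745 points. Mean A length fell less without URT1, by 0.598 nt (14.3 nt in urt1 xrn4 and 14.9 nt in urt1) against 1.69 nt with it (13.8 nt in xrn4 and 15.5 nt in WT), a difference of 1.09 nt.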

How the results depend on the processing

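No paired analysis was possible because the labels give 1 library per genotype and no replicate numbers. The alternatives by lane, by identical reads for the lists, the classes of U number, the G and C extensions and the with-and-without-URT1 differences, without CAB1 to CAB3, and with at least 20 distinct ends were chosen after seeing the data. The uridylated difference stayed positive throughout, at 5.09 points for tails of 10 A or more, 4.93 for extensions of U alone, 5.88 at the A lengths of urt1 and 4.88 as a mean over genes. With identical reads counted once the differences were -20.0 points for 1 U, -6.18 for U and A, 1.49 for tails under 10 A, -0.154 nt for mean A length, -1.14 points for G and -0.309 for C extensions. Unmodified tails alone gave 3.20 points under 10 A and -0.227 nt. Genes higher in uridylation numbered 38, 8, 0, 4, 4 and 7 with at least 20 tails, at least 100 tails, identical reads counted once (2 genes tested), the same with at least 20 distinct ends (60 tested), lane 1 and lane 2; genes lower numbered 2 with at least 20 tails and 1 for U alone. Genes with a higher share of reads numbered 46 (median of ratios), 15 (at least 50 reads), 575 (no minimum), 10 (identical reads counted once), 21 (lane 1) and 27 (lane 2), and those lower 98, 26, 237, 3, 27 and 23 in the same order. Genes with longer tracts numbered 5, 2, 2 and 3, and with shorter ones 16, 3, 11 and 12, with at least 50 tails, identical reads counted once, lane 1 and lane 2. Fewer tests in these settings lower some of the counts. Counting identical reads once reversed the difference of AT1G07940 (-9.66 points), CRD1 (-3.08) and AT4G05070 (-1.52) in uridylation and of CAB3 in A length (0.23 nt). It also moved the with-and-without-URT1 differences to 3.49 points for uridylated tails (reversed), -0.456 for 3 or more U, -11.2 for U and A and -1.51 for C. Different molecules with one and the same end are merged by this counting too, and the cause of these moves was not tested. Depth limits single genes: 0 reads allow 114 CPM in urt1 xrn4 and 69.1 CPM in urt1.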

Other observations

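Among G extensions, 27.4% followed a tract of only 4 A in urt1 xrn4 (433 of 1579) and 22.2% in urt1 (573 of 2577), a difference of 5.19 points (2.48 to 7.93). A single G made up 75.3% of G extensions in urt1 xrn4 and 72.7% in urt1. Tracts before a C extension were 10.8 ± 6.03 nt in urt1 xrn4 and 12.4 ± 6.41 nt in urt1 (SD over reads), a difference of -1.58 nt with a standard error over reads of 0.332.

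Transcripts of the mRNA decay and poly(A) binding list were rarely read. DCP2, the decapping enzyme, had 6 reads in urt1 xrn4 and 0 in urt1, and PAB2, a poly(A)-binding protein, had 5 and 1. PAB4 had 6 reads in urt1 xrn4 and 11 in urt1. None of these counts reached the minimum of 20 reads for a comparison.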
